A study of Mus musculus with 30 samples.

Results

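The natriuretic peptide system of the mouse left ventricle was described through 9 genes. The genes were taken by name for their known roles, at a time when earlier results of these data were known. They are the peptide genes Nppa, Nppb and Nppc, the processing proteases Corin and Furin, the degrading peptidase Mme, and the receptors Npr1, Npr2 and Npr3. All 9 were found by symbol among the 24467 genes listed, and 8 of them were among the 13588 genes with enough counts to be tested. Nppc was not.

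Natriuretic peptides are hormones that the heart releases when its walls are stretched. Nppa and Nppb encode the precursors of atrial (ANP) and brain (BNP) natriuretic peptide, which are cut by corin and furin and act through the receptor of Npr1, a membrane guanylyl cyclase that makes cyclic GMP (cGMP). The receptor of Npr2 is a related cyclase that prefers C-type natriuretic peptide, the product of Nppc, while the receptor of Npr3 removes the peptides and neprilysin, the product of Mme, degrades them. In the adult ventricle Nppa and Nppb are classic markers of pressure load.

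RNA of 30 left ventricle samples was sequenced as strand-specific mRNA libraries. Non-transgenic mice (NTG, called wildtype in the sample titles) and mice with the transgene hRXFP1tg (TG) were operated on, and either a constriction of the transverse aorta, against which the ventricle has to pump (TAC), was in place for 8 weeks, or the operation was a Sham one. The transgene carries the human relaxin receptor, overexpressed in cardiomyocytes according to the title of the series, and the study asked how it bears on pressure overload. The groups were 5 Sham and 10 TAC samples of NTG mice and 5 Sham and 10 TAC samples of TG mice, each referred to here as a heart. The promoter, the founder line, the strain, the sex and the age were not given in the sources used here, nor whether each sample came from its own mouse, so a p-value measures the spread between these samples.

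Library totals ran from 9231678 to 13093351 counts, and 3 counts, taken as the limit of detection, correspond to 0.229 to 0.325 CPM (counts per 1000000 counts of the library, scaled here by TMM factors unless stated otherwise). Cardiomyocyte markers (Myh6, Tnnt2, Ryr2, Myl2, Myl3) were abundant in every heart. The mouse gene Rxfp1 had a mean of 0.122 to 0.363 CPM in the 4 groups, which does not check the human transgene. After the data were seen, 3 hearts were set apart. NTG TAC replicate 1 had Postn, a load-induced matrix gene, at 34.3 CPM and TG TAC replicate 1 at 32.1 CPM, no higher than in Sham hearts (32.9 to 51.7 CPM in NTG and 36.3 to 47.6 CPM in TG). Acta1, an actin gene of the load response, went the other way in both. It was at 1986 CPM in the NTG and 1236 CPM in the TG heart, above the highest Sham hearts (1301 and 687 CPM). NTG TAC replicate 7, not set apart, had Acta1 at 1166 CPM, within the NTG Sham range. Replicate 5 of NTG Sham had a summed level of 4 T cell markers of 211.69 CPM, against at most 15.6 CPM in the other 29 hearts. Results are given below with and without these 3 hearts where that changed a call. The number in the deposited sample name, whose meaning is not given, was 100 or more in all 5 TG Sham and 4 of 5 NTG Sham libraries but in 1 of 10 TG TAC and 3 of 10 NTG TAC libraries, so surgery and number overlap in large part.

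Per kilobase of exon, so that genes can be compared, the peptide transcripts were the most abundant members in every group. In NTG Sham hearts the mean level was 349 ± 105.2 CPM per kb for Nppa and 298 ± 77.2 CPM per kb for Nppb (SD, n = 5), and their ranges overlapped. Corin followed with 55.3 ± 5.94 CPM per kb, then Npr2 with 23.2 ± 0.97, Furin with 16.8 ± 1.24 and Npr1 with 9.29 ± 0.48 CPM per kb, with no overlap between neighbours in this order. Npr3 with 1.40 ± 0.23 and Mme with 1.24 ± 0.11 CPM per kb overlapped each other, and Nppc came last at 0.0586 CPM per kb. In TG Sham hearts the order of the peptides was the other way round, Nppb at 176 ± 96.6 and Nppa at 116 ± 58.3 CPM per kb (SD, n = 5), with overlapping ranges, and the range of Nppa overlapped that of Corin. In NTG TAC hearts Nppa reached a mean of 5105 ± 4408 CPM per kb (SD, n = 10).

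Nppa (gene ID 230899) lies on the forward strand at chr4:148000722-148002074 of GRCm38 (mm10), and Nppb (18158) at chr4:147985786-147987205, with 13516 bases between them. An annotated antisense gene, Gm13054, overlaps Nppa over 989 bases. Because the strand setting of the authors' counting is not stated, reads from the 2 genes cannot be told apart. Annotated genes on the opposite strand also overlap Corin, Furin, Npr1, Npr2 and Npr3.

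The promoters of the 2 load-responsive peptide genes are shown because most of the differences described here concern these genes. Sequences are from RefSeq, build GRCm38.p6, forward strand, chr4:148000472-148000721 for Nppa and chr4:147985650-147985785 for Nppb. Each ends 1 base before the first annotated base of its gene. For Nppb the promoter record puts the start at 147985900, after the first annotated base (147985786). The window was therefore cut to 136 bases, and the bases between these 2 positions were not searched. Both strands were searched for 7 motifs of factors known to act on cardiac promoters. The letters were TCACACC for the T-box factors, AAGTG for the homeobox factor NKX2-5, GATAA for the zinc finger factors of the GATA family and TGANTCA for the AP-1 dimers. They were CATTCC for the M-CAT element of the TEAD factors and TATAAA for the core promoter box, and the CArG box of serum response factor was searched as well. Capitals mark the matches.
Nppa: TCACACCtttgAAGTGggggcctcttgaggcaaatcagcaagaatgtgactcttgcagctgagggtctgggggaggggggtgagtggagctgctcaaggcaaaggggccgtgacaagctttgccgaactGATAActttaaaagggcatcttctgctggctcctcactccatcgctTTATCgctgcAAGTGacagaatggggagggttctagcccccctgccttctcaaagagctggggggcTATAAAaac
Nppb: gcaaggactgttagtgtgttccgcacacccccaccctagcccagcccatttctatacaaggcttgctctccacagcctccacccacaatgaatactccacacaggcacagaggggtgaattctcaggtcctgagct
The 250 bases of Nppa held 1 T-box match (positions -250 to -244 from the start), 2 NKX2-5 matches, 2 GATA matches (1 of them on the reverse strand, read TTATC here) and 1 TATA match (-9 to -4). No 2 matches overlapped each other. Of 32851 promoter windows of the same length, 3.33% held the T-box letters, 40.7% the NKX2-5, 22.6% the GATA and 12.4% the TATA letters. None of the letters of AP-1, M-CAT or CArG occurred in the Nppa window, and 6.75%, 12.6% and 1.47% of the windows held them. None of the 7 motifs occurred in the 136 bases of Nppb. Of windows of that length, 25% held the NKX2-5, 14.4% the GATA and 0.706% to 7.41% each of the other letters. Absence of any 1 motif is thus the more common outcome. These are letter matches only, and absence refers to these windows.

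After TAC both peptide transcripts rose in NTG hearts. Nppa stood at 238.8, 460.5, 258.2, 295.9 and 256.5 CPM in the 5 NTG Sham hearts. In NTG TAC hearts it ranged from 386 CPM over a median of 3635 to 9454 CPM. All TAC hearts but replicate 1 lay above the highest Sham heart. The fitted log2 fold change was 3.87 ± 0.75 (SE), a 14.6-fold difference (edgeR, adjusted p = 0.00238). Within the TAC group 5 hearts lay between 386 and 1609 CPM and the other 5 between 5661 and 9454 CPM, a gap of 1.82 on the log2 scale with no heart in it. Being bulk tissue, the left ventricle samples do not tell fewer cells of a type from less RNA per cell, here or in any result below.

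Nppb, the gene for BNP, stood at 316.0, 266.8, 206.7, 213.7 and 159.3 CPM in NTG Sham hearts. In NTG TAC hearts the lowest was 269, the median 504 and the highest 1748 CPM. Of the 10 TAC hearts 6 lay above the highest Sham heart, and all 10 above the Sham mean of 232.5 CPM. The log2 fold change of 1.63 ± 0.46 (edgeR, adjusted p = 0.0173) corresponds to 3.09-fold. With voom and quality weights it was 1.01 and did not pass (adjusted p = 0.0631). Nppc, the gene for C-type natriuretic peptide (18159, chr1:86666293-86670573, reverse strand), had 0 to 2 counts in each of the 30 libraries. It was at or under the limit of detection in all 4 groups.

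**Figure D1:**
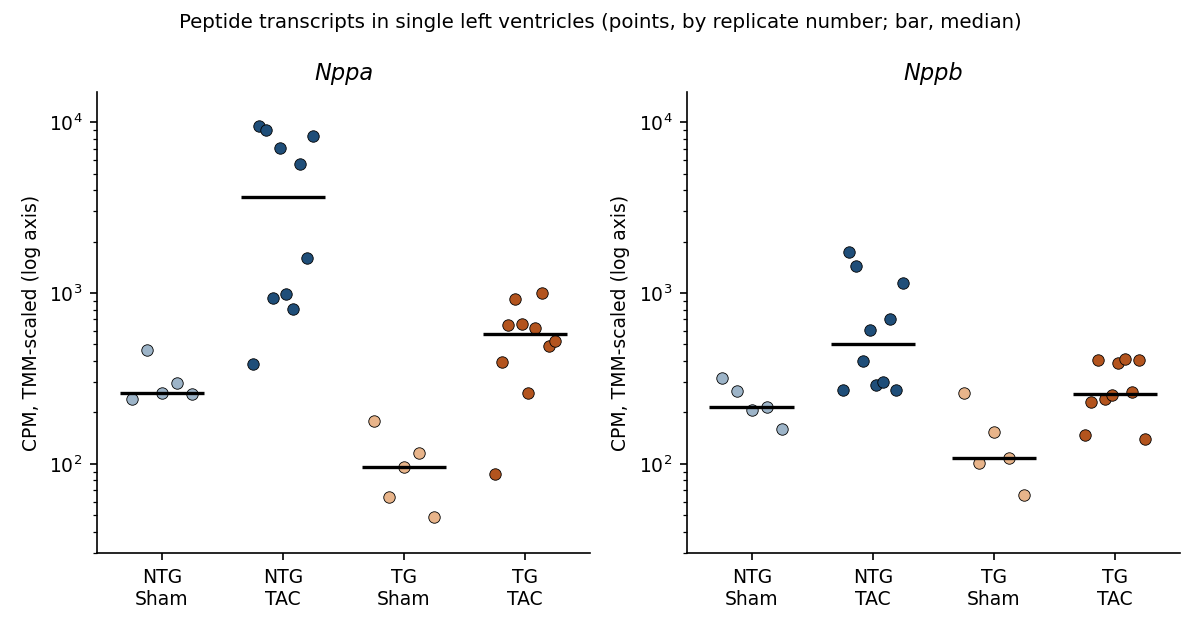
Levels of Nppa and Nppb in each heart (points, CPM with TMM scaling on a log axis) for the 4 groups, with the median as a bar. Nppa in the NTG TAC hearts splits at a gap between 1609 and 5661 CPM, and the TG Sham hearts lie below all NTG Sham hearts for Nppa but not for Nppb.

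Of the processing proteases, Corin fell slightly and Furin did not pass. Corin, the membrane protease of cardiomyocytes that activates pro-ANP (53419, chr5:72299948-72504540, reverse strand), stood at 293.3, 280.4, 338.3, 322.8 and 258.6 CPM in NTG Sham hearts. In NTG TAC hearts it ranged from 195.5 over 245 to 312.9 CPM, and 7 of 10 hearts lay below the lowest Sham heart. It fell by 0.27 ± 0.09 on the log2 scale (edgeR, adjusted p = 0.0417). That call ended without any 1 of 10 NTG libraries: Sham replicates 1 to 4 and TAC replicates 2, 3, 5, 6, 8 and 10 (adjusted p up to 0.129). It also ended without a filter (-0.26, adjusted p = 0.0538) and with the sample-name number as a term (-0.22, adjusted p = 0.145). Furin, a convertase of the secretory pathway that cuts pro-BNP (18550, chr7:80389194-80405441, reverse strand), had means of 154 ± 11.4 CPM (SD, n = 5) in NTG Sham and 151 ± 31.7 CPM (SD, n = 10) in NTG TAC hearts. Its log2 fold change was -0.03 ± 0.10 (adjusted p = 0.878), with a 95% interval from -0.22 to 0.16.

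Mme, which encodes neprilysin (17380, chr3:63295211-63383713, forward strand), was low in every heart and lower after TAC. It stood at 13.3, 15.8, 12.9, 14.3 and 15.4 CPM in NTG Sham hearts, and at 3.35, 8.58 and 13.3 CPM in the lowest, median and highest NTG TAC heart. All 10 TAC hearts lay below the Sham mean and 8 below the lowest Sham heart. The fall was 0.75 ± 0.22 on the log2 scale (edgeR, adjusted p = 0.0209), and without NTG Sham replicate 2 it was 0.71 (adjusted p = 0.0512). Counts of Mme were 38 to 165 per library in the NTG groups.

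Of the receptors the clearance receptor rose. Npr3 (18162, chr15:11839896-11907837, reverse strand) stood at 15.3, 15.6, 10.9, 11.9 and 12.0 CPM in NTG Sham hearts. In NTG TAC hearts it ranged from 12.7 over 22.3 to 39.5 CPM, and 7 of 10 lay above the highest Sham heart. The log2 fold change was 0.86 ± 0.23, or 1.81-fold (edgeR, adjusted p = 0.0128). Npr1, the cyclase receptor of ANP and BNP (18160, chr3:90450591-90465928, reverse strand), had means of 44.4 ± 2.28 CPM (SD, n = 5) in NTG Sham and 40.3 ± 3.33 CPM (SD, n = 10) in NTG TAC hearts. Its log2 fold change of -0.14 ± 0.06 did not pass (adjusted p = 0.114), with a 95% interval from -0.26 to -0.02. Npr2 (230103, chr4:43629015-43651437, forward strand) was at 108 ± 4.55 and 109 ± 8.91 CPM, a log2 fold change of 0.02 ± 0.05 (adjusted p = 0.848).

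**Figure D2:**
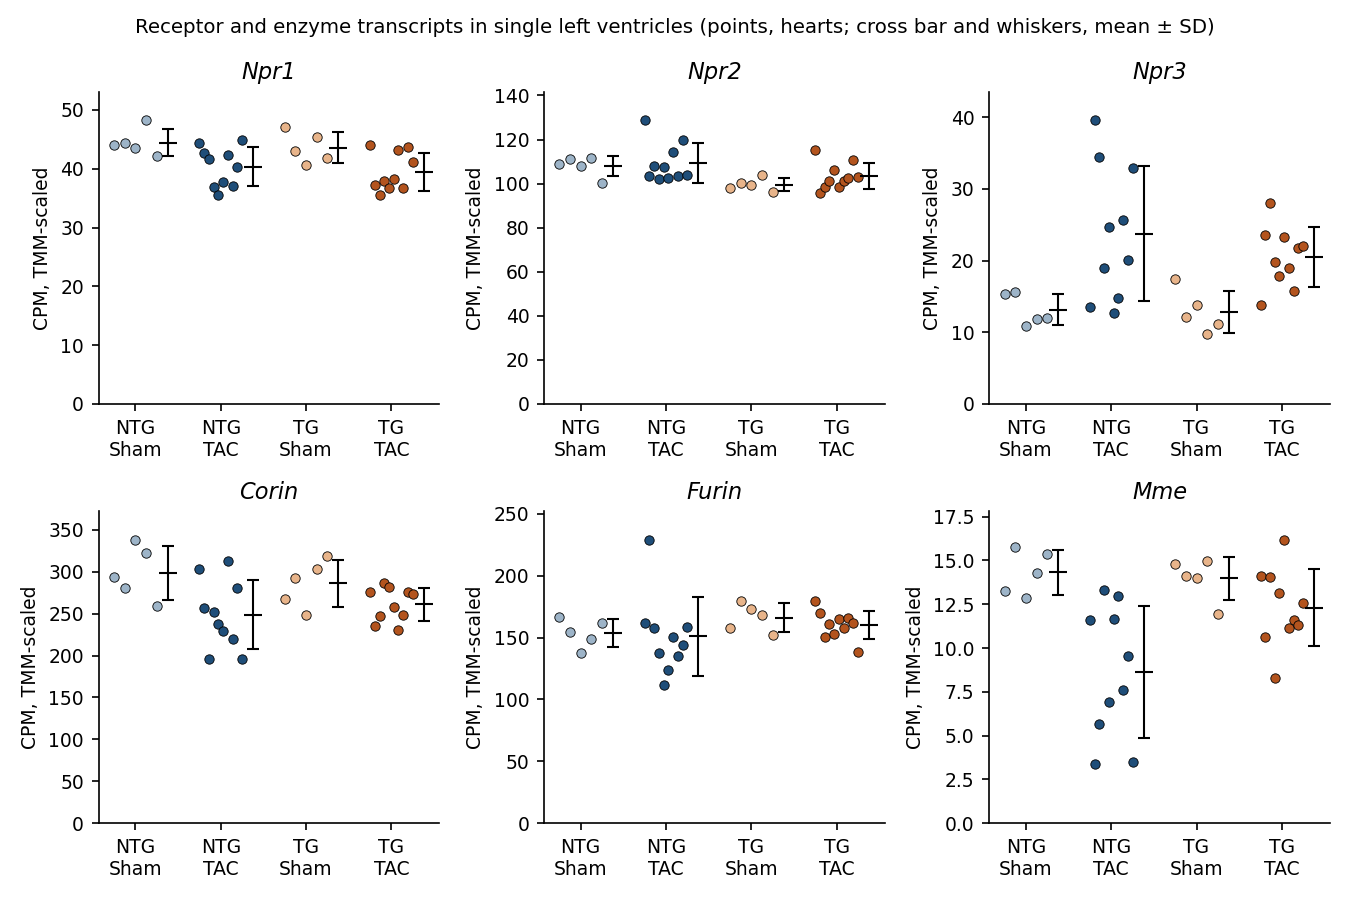
Levels of the 3 receptors and 3 enzymes in each heart (points, CPM with TMM scaling on linear axes from 0) for the 4 groups, with mean ± SD. Npr3 reaches 39.5 CPM and Mme goes down to 3.35 CPM among the NTG TAC hearts. The ranges of compared groups overlap for every gene shown.

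In NTG hearts, then, 5 of the 8 tested members passed after TAC, 3 higher and 2 lower. Over all 13588 genes 17.6% passed, 9.46% higher and 8.13% lower. The median log2 fold change was -0.005 over the 8 members and 0.0017 over all genes. All 5 calls also stood without the 3 hearts named above, a removal chosen after the data were seen. In a fit of the NTG libraries alone, with a spread of their own, Nppa kept its call (adjusted p = 0.0408) and Nppb, Corin, Mme and Npr3 did not (adjusted p from 0.0895 to 0.147). With 1 surrogate variable in the model none passed, and Nppa was at 1.83 (adjusted p = 0.0637); among NTG libraries with a number of 100 or more (4 Sham against 3 TAC) none passed, and Nppa was at 4.33 (adjusted p = 0.148).

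Cell type markers moved in the same NTG comparison. The summed level of the 5 cardiomyocyte markers was 45356 to 53285 CPM in NTG Sham and 21928 to 47677 CPM in NTG TAC hearts, with 3 of 5 called lower. The 5 fibroblast markers summed to 859 to 1145 CPM in Sham and 926.6 to 2425 CPM in TAC hearts, with 2 of 5 called higher. The 5 macrophage markers summed to 112 to 151 and 102.5 to 385 CPM, and the 4 endocardial markers to 103.9 to 117.8 and 100.5 to 131 CPM. The part of these shifts in the member results was not tested. Of the atrial cardiomyocyte markers, Myl7 was at most 1.30, Sln at most 0.560 and Bmp10 at most 0.281 CPM in all 30 hearts, and Myl4 ran from 0.912 to 6.33 CPM. The sum of the 5 atrial markers was 111 to 123 CPM in NTG Sham and 29.4 to 103.9 CPM in NTG TAC hearts. Nearly all of it was Kcnj3, so the sum does not measure atrial tissue. Whether atrial tissue entered the Nppa values was not tested.

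Within the NTG TAC group several members followed the order of Nppa. In order of rising Nppa (replicates 1, 7, 4, 6, 9, 8, 5, 10, 3 and 2), Npr3 was at 13.6, 14.8, 18.9, 12.7, 20.0, 25.6, 24.6, 32.8, 34.5 and 39.5 CPM. In the same order Mme was at 11.6, 13.0, 13.3, 11.7, 9.57, 7.60, 6.94, 3.49, 5.68 and 3.35 CPM. The 5 hearts above the Nppa gap thus held the 5 highest Npr3 and the 5 lowest Mme values of their group. They also held the 5 highest Nppb values, from 608 to 1748 CPM, while Corin, Furin, Npr1 and Npr2 overlapped between the 2 sets. Genes outside the system separated there as well. Postn was at 455 to 1427 CPM above the gap and 34.3 to 123 CPM below it. Myh7, a myosin heavy chain gene, was at 1372 to 4028 and 785 to 1083 CPM. The share of all genes that separate at this gap is not given here, so the split is not shown to be particular to the members. Marker sums split at the same gap. The 5 hearts above it had cardiomyocyte sums of 21928 to 37552 CPM and the other 5 of 42933 to 47677 CPM, and fibroblast sums were 1538 to 2425 CPM above and 927 to 1402 CPM below it. The sums of the atrial list, again nearly all Kcnj3, were 29.4 to 65.5 CPM above and 81.2 to 103.9 CPM below it, while the macrophage sums overlapped. The part of these shifts in the order of the members was not tested. Because these hearts fall into 2 sets of 5, no correlation over them is given and the relation was not tested.

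**Figure D3:**
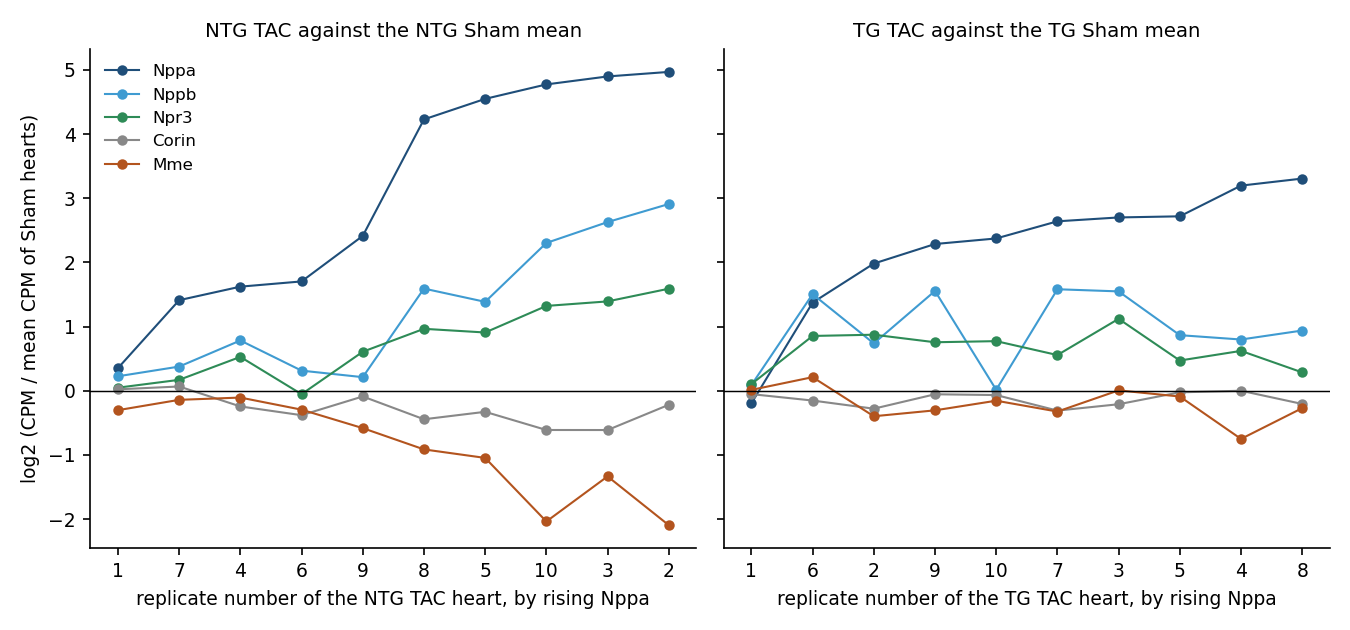
Each TAC heart in order of rising Nppa (x axis, replicate number), with 5 members as log2 of the level over the mean of the Sham hearts of the same genotype. In NTG TAC hearts Nppb and Npr3 lie highest and Mme lowest in the 5 hearts with the highest Nppa, and in TG TAC hearts the lines other than Nppa show no such order.

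In TG hearts no member passed after TAC, although several values pointed the same way. Nppa stood at 177.2, 63.7, 95.9, 116.5 and 48.8 CPM in TG Sham hearts, and at 87.8, 573 and 994 CPM in the lowest, median and highest TG TAC heart. All TG TAC hearts but replicate 1 lay above the highest TG Sham heart. The log2 difference of 2.48 ± 0.69 did not pass over all genes (edgeR, adjusted p = 0.0676). It passed without TG TAC replicate 1 (2.61, adjusted p = 0.0340) and without NTG TAC replicate 1, whose library enters the shared spread (2.49, adjusted p = 0.0398). It passed too without all 3 hearts named above (2.61, adjusted p = 0.0176). Of 30 fits that each left out 1 library, only these 2 passed, and each left out the lowest Nppa heart of a TAC group. Removal of the 3 hearts was chosen after the data were seen, so these passes are not independent support. The Nppa difference also passed when only the TG libraries were fitted (2.48, adjusted p = 0.0115).

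Nppb was at 260.2, 101.0, 154.5, 107.5 and 65.6 CPM in TG Sham hearts and at 139, 258 and 413 CPM in the lowest, median and highest TG TAC heart. All 10 TAC hearts lay above the Sham mean and 5 above the highest Sham heart, and the log2 difference was 1.06 ± 0.45 (adjusted p = 0.25). Npr3 was at 17.4, 12.2, 13.8, 9.72 and 11.2 CPM in TG Sham hearts and at 13.8, 20.8 and 28.0 CPM in the lowest, median and highest TG TAC heart. Of the 10 TAC hearts 8 lay above the highest Sham heart, with a log2 difference of 0.67 ± 0.23 (adjusted p = 0.146). It passed when only the TG libraries were fitted (0.67, adjusted p = 0.0145). Mme had means of 14.0 ± 1.21 CPM in TG Sham hearts (SD, n = 5) and 12.3 ± 2.204 CPM in TG TAC hearts (SD, n = 10), a log2 difference of -0.18 ± 0.22 (adjusted p = 0.759) with a 95% interval from -0.61 to 0.24. Corin (-0.13 ± 0.09), Furin (-0.05 ± 0.10), Npr1 (-0.14 ± 0.06) and Npr2 (0.05 ± 0.05) did not pass either, with adjusted p from 0.256 to 0.861.

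The count in TG hearts was thus 0 of 8 members, against 1.43% of all genes (0.898% higher, 0.53% lower). At an unadjusted p under 0.05 it was 4 of 8, against 1972 of all 13588 genes. DESeq2 called 1 member (Nppa), voom with quality weights 3, a fit with 1 surrogate variable 3 (Nppa, Nppb and Npr3 in both) and limma-trend 0. Cardiomyocyte markers summed to 45461 to 53046 CPM in TG Sham and 42324 to 51260 CPM in TG TAC hearts. The atrial list, nearly all Kcnj3, summed to 106.8 to 127.6 and 85.7 to 112 CPM.

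Within TG TAC hearts Nppa had no gap other than that above replicate 1, so relations over the 10 hearts were computed for 10 partners, as r of log2 CPM with permutation tests. Nppa did not pass with any member. The values were r = 0.35 and rho = 0.19 for Nppb (adjusted p = 0.477 and 0.758), r = 0.29 and rho = -0.20 for Npr3 (0.528 and 0.758) and r = -0.54 and rho = -0.39 for Mme (0.256 and 0.439). Corin, Furin, Npr1 and Npr2 had r from -0.53 to -0.13. Outside the system, Acta1, the skeletal alpha-actin gene of the load response, had r = 0.95 (permutation test, adjusted p = 0.00365) and rho = 0.82 (adjusted p = 0.0548). Postn had r = 0.94 (permutation test, adjusted p = 0.00365) and rho = 0.67 (adjusted p = 0.193). Myh7, a myosin heavy chain gene and the remaining outside partner, did not pass, with r = 0.19 (permutation test, adjusted p = 0.68) and rho = 0.42 (adjusted p = 0.439). Without replicates 1 and 6, the 2 hearts farthest from the median of Nppa, r was 0.64 for Acta1 and 0.60 for Postn (adjusted p = 0.33 for each), so neither call held over the remaining 8 hearts. Within the 9 TG TAC libraries with a number under 100, r was 0.83 for Acta1 (adjusted p = 0.0275) and 0.79 for Postn (adjusted p = 0.0385). Myh7 passed there (r = 0.87, permutation test, adjusted p = 0.0197), but not without replicates 1 and 6 (r = 0.785, adjusted p = 0.199).

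Before any load, TG and NTG hearts were compared after Sham. Every TG Sham heart had less Nppa than every NTG Sham heart, with 177.2 CPM as the highest of the one group and 238.8 CPM as the lowest of the other. Over all genes 1.65% were separated in this direction, 1.9% in the other and 3.55% in either. The log2 difference of -1.59 ± 0.72 did not pass (edgeR, adjusted p = 0.632), with a 95% interval from -3.00 to -0.18. When only the 10 Sham libraries were fitted it was -1.59 as well (adjusted p = 0.086), and among the Sham libraries with a number of 100 or more, 4 NTG and 5 TG, it was -1.64 (adjusted p = 0.117). Nppb differed by -0.75 ± 0.50 (adjusted p = 0.869), with 4 of 5 TG Sham hearts below the lowest NTG Sham heart and replicate 1 within the NTG range.

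The other members differed less between the Sham groups. Npr2 had a log2 difference of -0.12 ± 0.06 (adjusted p = 0.715), and 4 of 5 TG hearts lay below the lowest NTG heart. Npr3 differed by -0.03 ± 0.27, Mme by -0.03 ± 0.25, Npr1 by -0.03 ± 0.07, Corin by -0.06 ± 0.11 and Furin by 0.11 ± 0.11, all with adjusted p of at least 0.982. Of the 8 members 0 passed, while 0.729% of all genes passed (0.596% higher, 0.132% lower). At an unadjusted p under 0.05 there was 1 member (Nppa), against 988 of all 13588 genes. DESeq2, voom and limma-trend also called 0.

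**Figure D4:**
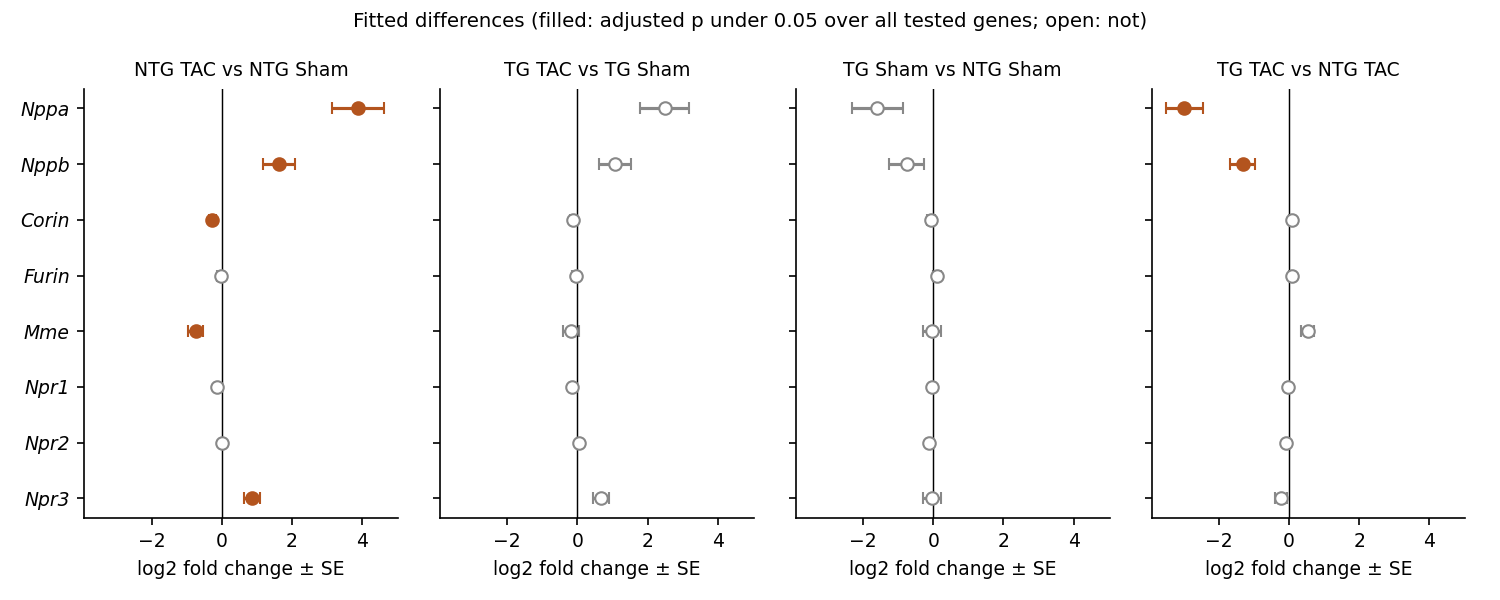
Fitted log2 fold changes of the 8 tested members with standard errors, 1 panel for each pair of groups. Filled points passed an adjusted p of 0.05 over all tested genes, 5 for TAC in NTG hearts and 2 for genotype after TAC (Nppa -2.98 and Nppb -1.32). Comparisons in neighbouring panels share groups.

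After TAC the peptide transcripts were lower in TG than in NTG hearts. Nppa, at 386 to 9454 CPM in NTG TAC and 87.8 to 994 CPM in TG TAC hearts, had means of 4416 ± 3813 and 561 ± 276 CPM (SD, n = 10 each). The 10 TG TAC hearts all lay below the NTG TAC mean, but that mean falls in the gap, and 5 of the 10 NTG TAC hearts lay below it too. Only 2 of 10 TG TAC hearts lay below the lowest NTG TAC heart, so the ranges overlapped. The log2 difference was -2.98 ± 0.53 (edgeR, adjusted p = 0.000991), so the mean level was 7.87-fold lower in TG hearts. Among TAC libraries with a number under 100 it was -2.56 (adjusted p = 0.027), and with 1 surrogate variable -1.39 (adjusted p = 0.0504).

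Nppb ranged from 269 to 1748 CPM in NTG TAC and from 139 to 413 CPM in TG TAC hearts, and 6 of 10 TG hearts lay below the lowest NTG heart. The difference was -1.32 ± 0.35 on the log2 scale (edgeR, adjusted p = 0.0184). The call ended without NTG TAC replicate 2 (-1.07, adjusted p = 0.0502), among libraries with a number under 100 (-0.81, adjusted p = 0.177), with voom (-0.77, adjusted p = 0.156), with limma-trend (-1.06, adjusted p = 0.0526), with the number as a term (-1.06, adjusted p = 0.0557) and with 1 surrogate variable (-0.36, adjusted p = 0.554).

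Mme ranged from 3.35 to 13.3 CPM in NTG TAC and from 8.31 to 16.2 CPM in TG TAC hearts, a log2 difference of 0.53 ± 0.19 that did not pass (edgeR, adjusted p = 0.0597). It passed with DESeq2 (0.52, adjusted p = 0.037), with limma-trend (0.60, adjusted p = 0.0416), and without any 1 of NTG TAC replicates 1, 4, 6 and 7 and TG TAC replicate 4 (adjusted p from 0.0236 to 0.0457). Npr3 had a log2 difference of -0.22 ± 0.18 (adjusted p = 0.436), with a 95% interval from -0.56 to 0.12, and 9 of 10 TG hearts below the NTG mean. Npr2 was at -0.08 ± 0.04 (adjusted p = 0.204), and 5 of 10 TG hearts lay below the lowest NTG heart. Corin (0.07 ± 0.08), Furin (0.09 ± 0.08) and Npr1 (-0.03 ± 0.05) had adjusted p from 0.51 to 0.709. In all, 2 of 8 members passed, both lower, against 11.4% of all genes (4.57% higher, 6.86% lower). Cardiomyocyte markers summed to 42324 to 51260 CPM in TG TAC and 21928 to 47677 CPM in NTG TAC hearts, and fibroblast markers to 850 to 1239 and 927 to 2425 CPM, and their part in these differences was not tested.

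Whether TAC acted differently in the 2 genotypes was tested as an interaction. The interaction was -1.39 ± 0.86 for Nppa (adjusted p = 0.64), -0.56 ± 0.60 for Nppb (0.772), 0.56 ± 0.31 for Mme (0.621), -0.19 ± 0.32 for Npr3 (0.873) and 0.13 ± 0.13 for Corin (0.751). For Nppa the 95% interval ran from -3.08 to 0.31. Of the 8 members 0 passed, and 0 at an unadjusted p under 0.05. Over all 13588 genes edgeR called 0 as well (a percentage of 0), with 1103 at an unadjusted p under 0.05, while DESeq2 called 5 genes, limma-trend 1 and voom 0, none of them a member. A difference between the genotypes in the response of a member to TAC is therefore not shown, whatever passed in the NTG comparison alone.

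Ratios of 2 genes within a heart do not depend on library size and show the balance of the members. The ratio of Nppa to Nppb was 0.756 to 1.73 in NTG Sham hearts and 0.621 to 1.08 in TG Sham hearts. After TAC it was 1.42 to 11.6, with a median of 5.69, in NTG hearts and 0.599 to 3.84, with a median of 1.67, in TG hearts. On the log2 scale the difference was 1.82 between NTG TAC and NTG Sham (exact permutation test, two-sided, adjusted p = 0.0107) and 1.26 between TG TAC and TG Sham (exact permutation test, adjusted p = 0.0258). TG hearts were lower by 0.82 after Sham, at a mean of -0.44 against 0.37 (exact permutation test, adjusted p = 0.0254), and lower by 1.38 after TAC, at 0.82 against 2.196 (permutation test, adjusted p = 0.014). So Nppa moved by more than Nppb in each of these 4 comparisons, which share groups. The call between the Sham groups ended without any 1 of 8 of the 10 hearts, all but NTG Sham replicate 1 and TG Sham replicate 4 (adjusted p up to 0.0533). That of TAC in TG hearts ended without TG Sham replicate 1, 2 or 3.

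The ratio of the clearance receptor Npr3 to the signalling receptor Npr1 rose after TAC in both genotypes. It was 0.248 to 0.354 in NTG Sham, 0.307 to 0.928 in NTG TAC, 0.216 to 0.371 in TG Sham and 0.316 to 0.789 in TG TAC hearts. The log2 difference was 0.90 in NTG hearts (exact permutation test, adjusted p = 0.014) and 0.81 in TG hearts (exact permutation test, adjusted p = 0.00799), and both calls held without each heart in turn. Between the genotypes it was -0.01 after Sham (exact permutation test, adjusted p = 0.944) and -0.10 after TAC (permutation test, adjusted p = 0.723). The p-values of both ratios were adjusted over the 8 tests.

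**Figure D5:**
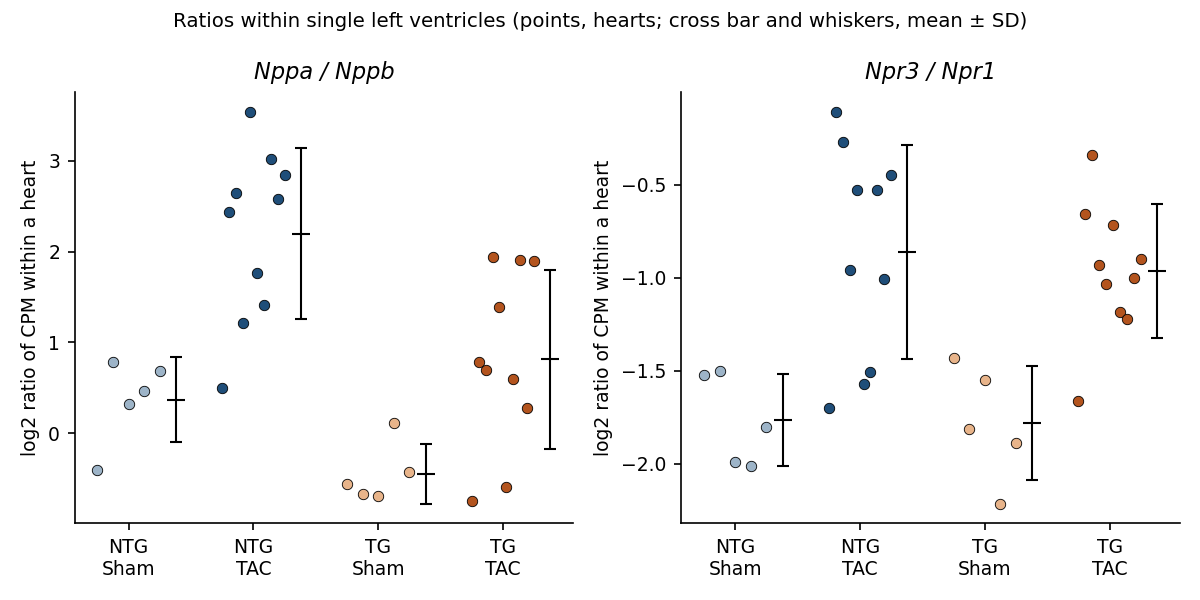
Log2 ratio of Nppa to Nppb and of Npr3 to Npr1 within each heart (points), with mean ± SD per group. The Nppa to Nppb ratio has means of 0.37, 2.196, -0.44 and 0.82 in the groups from left to right, and the Npr3 to Npr1 ratio -1.76, -0.86, -1.78 and -0.97.

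The genes most like 3 members were found by Pearson's r of log2 CPM after the group means were taken out, over the 30 libraries. These share depth and cell makeup with each other and include the NTG TAC hearts that fall into 2 sets, so r is a description. For Nppa the 5 nearest were Ltbp2 (0.945), Cilp (0.935), Xirp2 (0.928), Comp (0.927) and Thbs4 (0.925). Nppb stood at rank 339 of the tested genes, with r = 0.753, and Npr3 at 0.752, while Mme was at -0.739. For Nppb the nearest were Tnfrsf12a (0.956), Spsb4 (0.928), Tspan9 (0.923), Ppp1r3c (0.922) and Azin1 (0.919), with Npr3 at rank 51 (0.832). For Npr3 they were Myh10 (0.904), Sorbs2 (0.898), Heatr5a (0.898), Enah (0.865) and St6galnac4 (0.863), with Nppb at rank 25. Over the 20 libraries without the NTG TAC hearts r was lower, at 0.47 for Nppa with Nppb, 0.35 for Nppa with Npr3, 0.62 for Nppb with Npr3 and -0.29 for Nppa with Mme. Nppb then stood at rank 675 for Nppa, and Ltbp2 (0.891) and Tnfrsf12a (0.922) were still the nearest genes to Nppa and Nppb.

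Downstream, 18 of 21 genes of cGMP synthesis, action and breakdown were tested. In NTG hearts after TAC 1 rose, the phosphodiesterase gene Pde1a (0.43 ± 0.13, adjusted p = 0.0268), and 1 fell, Pde3a (-0.44 ± 0.11, adjusted p = 0.00985), so 2 of 18 were called against 17.6% of all genes, and the median over the list was -0.064. The soluble cyclase genes Gucy1a1 (-0.10 ± 0.13) and Gucy1b1 (-0.10 ± 0.11) and the kinase gene Prkg1 (0.16 ± 0.27) did not pass. In TG hearts after TAC 0 of 18 passed, against 1.43% of all genes (median -0.011). Pde1c, a phosphodiesterase of cardiomyocytes that splits cGMP and cAMP, was lower in TG than in NTG hearts after Sham, at 48.8 ± 3.79 against 74.8 ± 6.42 CPM (SD, n = 5 each), a log2 difference of -0.62 ± 0.08 (edgeR, adjusted p = 5.16e-06). It was lower after TAC too, at 49.8 ± 4.22 against 78.1 ± 6.33 CPM (SD, n = 10 each; -0.65 ± 0.05, edgeR, adjusted p = 1.01e-09). Pde9a, a cGMP-specific phosphodiesterase, was lower in TG TAC than in NTG TAC hearts by a log2 difference of -0.67 ± 0.14 (adjusted p = 0.00292), and Pde1a by -0.33 ± 0.11 (adjusted p = 0.0448). Those 3 were the only calls of the list between the TAC groups, 3 of 18 against 11.4% of all genes (median 0.03), and Pde1c the only one between the Sham groups, where 0.729% of all genes were called (median -0.027).

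Other convertases and peptidases were taken next. Of 9 such genes 6 were tested, and 0 passed in any of the 5 comparisons, with list medians from -0.083 to 0.027. Over all genes 17.6% and 1.43% passed after TAC in NTG and TG hearts, 0.729% and 11.4% between the genotypes after Sham and TAC, and 0 in the interaction, so with 6 genes a count of 0 is near the background. Pcsk6, a convertase that activates corin, was at -0.22 ± 0.10 in NTG (adjusted p = 0.125) and -0.18 ± 0.10 in TG hearts after TAC (adjusted p = 0.395). Ide, the insulin-degrading enzyme that also cuts natriuretic peptides, was at 104.1 ± 5.81 CPM in NTG TAC and 108 ± 5.29 CPM in TG TAC hearts (SD, n = 10 each; adjusted p = 0.426).

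All 20 listed transcription factors known to act on the Nppa or Nppb promoter were tested. In NTG hearts after TAC Tead1 (0.40 ± 0.10, adjusted p = 0.00824) and Myocd (0.31 ± 0.09, adjusted p = 0.0222) rose. Gata6 (-0.32 ± 0.08, adjusted p = 0.00633), Mef2a (-0.26 ± 0.07, adjusted p = 0.0131), Tbx5 (-0.41 ± 0.11, adjusted p = 0.0145) and Hey2 (-0.42 ± 0.15, adjusted p = 0.0425) fell. These were 6 of 20, against 17.6% of all genes, and the list median was -0.018. In TG hearts after TAC Myocd, the cofactor of serum response factor, rose by 0.41 ± 0.09 (adjusted p = 0.016), the 1 call of that list, against 1.43% of all genes (median 0.071). Between the genotypes 0 of 20 passed after Sham, against 0.729% of all genes, and 0 of 20 after TAC, against 11.4%. Gata4 and Nkx2-5, whose motif letters occur in the Nppa window printed above, were at 0.06 ± 0.08 (adjusted p = 0.667) and 0.01 ± 0.06 (adjusted p = 0.949) in NTG hearts after TAC. Letters of the GATA and T-box families occur in that window as well, and Gata6 and Tbx5 of these families fell there. The other T-box genes of the list did not pass.

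Neighbours of the Nppa and Nppb pair were read in the same way. The 5 protein-coding genes on either side were taken as neighbours, and 9 of these 10 were tested. After TAC 0 of 9 passed in either genotype, against 17.6% of all genes in NTG and 1.43% in TG hearts, so the count is near the background, with medians of 0.079 in NTG and 0.021 in TG hearts. The nearest on the far side of Nppa, Clcn6, was at 0.19 ± 0.09 in NTG hearts (adjusted p = 0.134), and the nearest before Nppb, 2510039O18Rik, at 0.12 ± 0.05 (adjusted p = 0.1). Between the TAC groups, where 11.4% of all genes passed, 1 neighbour of 9 passed, Plod1, a lysyl hydroxylase gene, higher in TG hearts by 0.19 ± 0.05 (adjusted p = 0.018).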

How the data were processed

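The authors deposited, for each of 30 libraries, raw counts per gene and CPM. The deposited CPM are the plain counts over each library's total (largest difference 7.28e-12). Per the submitters' processing notes, TopHat and Bowtie2 2.2.9 with mm10, Trim Galore 0.6.4 and edgeR 3.17 were used; the counting program and its strand setting are not given in the sources used here.

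The deposited counts were fitted with edgeR 4.0.16 (R 4.3.3). Genes were kept by filterByExpr (minimum count 10) and libraries scaled by TMM. One robust quasi-likelihood fit of 30 libraries with 4 group terms gave the 5 comparisons, with Benjamini-Hochberg adjustment over 13588 genes and a threshold of 0.05. A standard error is the absolute log2 fold change over the square root of F. Ratios used CPM + 0.1 and permutation tests, exact or with 100000 resamples. The fit was checked on counts simulated with the same spread of a gene in all groups. That check does not cover a spread that differs between groups, as that of Nppa does. Levels per kb used GENCODE exon lengths. Symbols came from RefSeq for 24437 IDs and GENCODE for 7; 23 had none.

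Members, lists and tests were chosen with earlier results of these data known. The text names the 9 members, the called genes of each list and some of the 3 with the smallest p; Gucy1a1, Gucy1b1, Prkg1, Gata4 and Nkx2-5 were named for their roles, with values seen. Alternatives were RLE and upper-quartile factors, no or a strict filter (CPM of 1 in 5 libraries), DESeq2 1.42.0, limma 3.58.1 (voom, and trend on the deposited CPM + 0.5), 1 surrogate variable (sva 3.50.0), the compared groups alone, the replicate block, the sample-name number, and each library left out. No 2 libraries were the same beyond counting error (lowest chi-square per degree of freedom 2.76 within groups).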

Additional observations from a re-analysis of the deposited data

Results flagged for a closer look

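Of 40 sets of values (10 measures in 4 groups) checked for a single value far from the rest, 2 stood out; chance alone flags about 1 in 20. Nppa in NTG Sham replicate 2 was at 460.51 CPM, and the nearest other heart of that group at 295.94 CPM. Furin in NTG TAC replicate 2 was at 229.26 CPM, and the nearest at 161.58 CPM; this heart also had the highest Nppa, Nppb and Npr3 values of its group.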

How the results depend on the processing

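Values are log2 fold changes. With 1 surrogate variable the members called were 0 in NTG hearts (Nppa 1.83, Nppb 0.39, Corin -0.10, Mme -0.32, Npr3 0.34), 3 in TG hearts (Nppa 2.31, Nppb 1.004, Npr3 0.64) and 0 between the TAC groups (Nppa -1.39, Nppb -0.36). Signs turned there for Mme after Sham (0.0418), Corin (-0.0537) and Npr3 (0.20) after TAC, and the interactions of Nppa (0.48), Nppb (0.62), Corin (-0.0184), Furin (0.0735), Npr1 (0.0126), Npr2 (-0.0243) and Npr3 (0.31).

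DESeq2 called 1 in TG hearts (Nppa 2.48) and Mme between the TAC groups (0.52). Limma-trend gave -1.06 for Nppb and 0.60 for Mme there. Voom lost Nppb in NTG hearts (1.01) and between the TAC groups (-0.77, 1 member called), and called Npr1 in NTG (-0.19) and 3 members in TG hearts (Nppa 2.47, Nppb 1.13, Npr3 0.68). It turned Npr1 between the TAC groups (0.0014) and the interactions of Nppb (0.12), Furin (0.058), Npr1 (0.0327) and Npr3 (0.0313). Without a filter Corin missed the threshold in NTG hearts (-0.26).

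In fits of the compared groups alone 1 member was called in NTG hearts (not Nppb 1.63, Corin -0.27, Mme -0.74 or Npr3 0.86) and 2 in TG hearts (Nppa 2.48, Npr3 0.67). With the sample-name number as a term, Corin (-0.22) lost its call in NTG hearts and Nppb (-1.06, 1 member called) between the TAC groups. Signs turned for Furin in NTG (0.0807) and TG hearts (0.17), Mme after Sham (0.0045) and the interactions of Furin (0.0897) and Npr1 (0.0471). Among TAC hearts with numbers under 100 the Npr3 to Npr1 difference between genotypes was 0.0474.

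Whether replicate numbers pair the hearts is not stated. Over 35 same-numbered pairs the median correlation of deviations was 0.047 (-0.152 to 0.548), with 8 over 0.1, which does not decide it. The replicate block gave 3 called members in NTG hearts, and Furin turned to 0.0018. Nppb (1.56, edgeR, adjusted p = 0.0621) and Corin (-0.26, edgeR, adjusted p = 0.0823) lost their calls there. Between the TAC groups 1 member was called, and Nppb (-1.15) was not.

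Alternatives added after seeing the data were 5, with the likeness of genes without NTG TAC hearts given above. NTG libraries numbered 100 or more gave 0 called (Nppa 4.33, Nppb 2.21, Corin -0.29, Mme -1.03, Npr3 1.13, Furin turned to 0.27). TAC libraries numbered under 100 gave 1 (Nppb -0.81). Sham libraries numbered 100 or more changed no call. Without the 3 hearts that stood apart, 1 member was called in TG hearts (Nppa 2.61), and Npr2 in NTG hearts (-0.0363) and the Npr1 interaction (0.0101) turned.

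In TG TAC hearts, correlations of Nppa without the 2 farthest hearts were 0.64 for Acta1 and 0.60 for Postn, and turned for Corin (0.22), Furin (0.086), Npr2 (0.072) and Npr3 (-0.58). Under a number of 100 they turned for Nppb (-0.18), Corin (0.17), Npr2 (0.25) and Npr3 (-0.56), and Myh7 passed (0.87).

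Leaving out each library in turn gave 3 to 5 called members in NTG hearts, 0 to 1 in TG hearts and 1 to 3 between the TAC groups. Ranges were -0.31 to -0.22 for Corin, -0.84 to -0.65 for Mme, -0.11 to 0.0153 for Furin and -0.0103 to 0.0299 for Npr2 in NTG hearts, and 2.31 to 2.79 for Nppa in TG hearts. They were -1.41 to -1.07 for Nppb and 0.43 to 0.62 for Mme between the TAC groups, and -0.0709 to 0.0131 for Mme, -0.0576 to 0.0027 for Npr1 and -0.16 to 0.0534 for Npr3 between the Sham groups. The interactions of Furin and Npr1 ran from -0.061 to 0.0634 and -0.0361 to 0.0242. The Nppa to Nppb difference ran from -1.01 to -0.71 between the Sham groups and from 1.14 to 1.43 for TAC in TG hearts, and that of Npr3 to Npr1 from -0.10 to 0.0945 between the Sham groups. Causes were not tested. Nppc, at 0 to 2 counts a library, is limited by depth and was fitted only without a filter; RLE and upper-quartile factors, a strict filter and a ratio pseudocount of 0.5 changed no call.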
